A study of Mus musculus with 59 samples.

Results

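The Lingo family comprises 4 genes, Lingo1, Lingo2, Lingo3 and Lingo4, of the 54232 mouse genes counted here. The 4 were taken by gene symbol, and the family was chosen by its measured levels, Lingo1 being lower in mutant cortex and Lingo3 in mutant hippocampus. For those 2 regions the differences between mutant and wild-type (WT) mice are therefore described without a test.

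RNA was sequenced from 5 dissected brain regions (cerebellum, brainstem, hippocampus, striatum and cortex) of 12 C57BL/6 mice aged 10 weeks, with 4 mice per genotype. WT mice were compared with Atxn1_154Q/2Q mice (154Q), a knockin model of spinocerebellar ataxia type 1 in which 1 allele carries an expanded CAG repeat. The third group, Atxn1_154Q[V591A;S602D]/2Q (154Q-AXH), carries on that expanded allele the V591A and S602D changes. These abolish the binding of the expanded ATXN1, and not of that from the 2Q allele, to the transcriptional repressor CIC. The substitutions follow the numbering of human ATXN1, and synonymous changes were made on the same allele. Both mutants are heterozygous, the mutant protein is made wherever Atxn1 is active, and 154Q-AXH mice descend from a genome-edited founder. Each region had 12 libraries except brainstem, which had 3 rather than 4 from 154Q-AXH mice. Mice are named by genotype and the number in their labels, such as WT-220. Because whole tissue was used, fewer cells of a type and less RNA per cell cannot be told apart.

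LINGO proteins are single-pass membrane proteins whose outer part carries leucine-rich repeats and an immunoglobulin domain. LINGO1, the best studied, is known as a co-receptor of the Nogo receptor Rtn4r and of the neurotrophin receptor Ngfr. Through that complex the myelin proteins Nogo, MAG and OMgp are known to restrain axon growth via RhoA and its kinase ROCK. LINGO1 also restrains the maturation of oligodendrocytes and binds the calcium-activated BK potassium channel. LINGO1 variants and levels in the cerebellum have been studied in essential tremor, and LINGO2 variants in tremor and Parkinson's disease. LINGO3 and LINGO4 are much less studied.

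In GRCm38, Lingo1 (ENSMUSG00000049556.5) lies on the minus strand at chr9:56618475-56796468 and has 4715 exon bases. Lingo3 (ENSMUSG00000051067.8) is also on the minus strand, at chr10:80832801-80844039, with 3559 exon bases. Lingo2 (ENSMUSG00000045083.14) spans chr4:35706647-36951747 on the minus strand with 8297 exon bases, and the 6 small genes within it share none of them. Lingo4 (ENSMUSG00000044505.5) lies on the plus strand at chr3:94398517-94404501 with 3645 exon bases, of which 79 (2.17%) are shared with the antisense gene Gm43401. Reads were counted without strand, so in those bases the 2 genes cannot be told apart.

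The results turn on Lingo1 and Lingo3, so the 250 bases upstream of a RefSeq start of each gene (GRCm38.p6, minus strand, read 5′ to 3′) are shown, with the only matches to the motifs searched in capitals. The Lingo1 bases cover chr9:56796311-56796560 and the Lingo3 bases chr10:80844040-80844289.
Lingo1: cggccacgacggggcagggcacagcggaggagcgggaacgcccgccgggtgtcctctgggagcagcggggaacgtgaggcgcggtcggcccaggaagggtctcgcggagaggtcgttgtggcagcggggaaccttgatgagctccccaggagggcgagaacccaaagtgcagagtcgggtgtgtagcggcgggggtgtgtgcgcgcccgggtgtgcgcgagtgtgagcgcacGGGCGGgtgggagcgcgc
Lingo3: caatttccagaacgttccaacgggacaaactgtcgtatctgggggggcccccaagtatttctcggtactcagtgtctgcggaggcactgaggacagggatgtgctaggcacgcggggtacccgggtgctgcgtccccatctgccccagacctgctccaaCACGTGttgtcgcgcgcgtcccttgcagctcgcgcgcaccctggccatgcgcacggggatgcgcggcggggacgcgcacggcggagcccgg
The capitals in Lingo1 mark a GC box, GGGCGG, at −18 to −13 from the start. Those in Lingo3 mark an E box, CACGTG, at −91 to −86. Of 32851 mouse promoter windows of this length, 32.7% held a GC box and 6.02% an E box on either strand. The octamers bound by CIC, TGAATGAA and TGAATGGA, were in 1.08% and 1.01% of the windows and in none of the 7 windows of the 4 Lingo genes. The other motifs searched were CCAAT (33.8% of windows), TATAAA (12.4%), the CRE TGACGTCA (1.55%) and the EGR1 site GCGGGGGCG (2.57%). CCAAT matched in 1 Lingo2 window and GGGCGG also in the second windows of Lingo1 and Lingo3. No 2 of the motifs overlapped within these windows. The shown windows were rich in G and C, with 72.8% GC and 31 CpG in Lingo1 and 66.8% and 27 in Lingo3, against medians of 52.4% and 6 over all windows. A match of letters is a description, and no binding was measured here.

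Libraries held 28058359 to 112343574 read pairs counted in genes, with the fewest in striatum and cortex. Atxn1, the altered gene, differed from WT by 0.02 to 0.30 on the log2 scale in the 10 mutant comparisons and passed the test in none, and these counts do not tell the genotypes apart. Markers of each region were highest in that region's own libraries, apart from the cortical markers in striatum, but 3 libraries stood apart. The hippocampal library of 154Q-76 held 383 CPM (counts scaled to library size) of 7 brainstem markers against 1.48 to 4.3 in the other 11 hippocampal libraries. It also held 187 CPM of Xist and 53.8 CPM of the Y-linked Ddx3y, where the 4 other libraries of that mouse held 0.21 to 5.30 and 68.2 to 154. In striatum, WT-220 and 154Q-AXH-217 held 4510 and 2775 CPM of 6 striatal markers against 496 to 1858 in the other 10. Those same 10 libraries held 321 to 602 CPM of 6 cortical markers, near the 410 to 661 of the cortical libraries themselves, against 231 and 212 in the 2 that stood apart. The cortical library of WT-221 had 470 CPM of Xist and 0.90 CPM of Ddx3y, where the 4 other libraries labelled as that mouse had 0.41 to 5.92 and 72.2 to 159. The file names of 1 pair of cortical libraries (154Q-76 and 154Q-AXH-207) disagreed with their labels, which were followed. Differences of Lingo1 and Lingo3 from WT that rest on these libraries are given with and without them, and without the cortical library of WT-221 all 40 differences between WT regions kept their call.

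In WT brain the 4 genes had different maps. Levels of different genes and regions are compared here as fragments per kilobase of exon, scaled to library size (FPKM), and all differences between WT regions were tested with edgeR. Lingo1 rose from 6.28 ± 0.600 FPKM in cerebellum (SD, n = 4) through 12.5 ± 0.251 in brainstem and 43.7 ± 2.99 in hippocampus to 79.6 ± 28.8 in striatum and 105 ± 3.65 in cortex. Cortex was thus 16.7-fold above cerebellum. Each step of that order passed the test except the last, where striatum and cortex differed by a log2 value of −0.40 (SE 0.18, adjusted p = 0.167). Without the striatal library of WT-220, striatum stood at 93.7 ± 7.06 FPKM (n = 3) and the difference from cortex was −0.16 (adjusted p = 0.197, with 5.34% of genes called). That library, the highest in striatal markers, held 37.3 FPKM of Lingo1 and 231 CPM of cortical markers. The 3 left held 507 to 602 CPM of cortical markers, so their Lingo1 level may include cortical RNA, which was not tested.

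Lingo3 had the opposite place in cerebellum. It reached 26.9 ± 9.66 FPKM in striatum, 19.2 ± 1.34 in cerebellum, 12.2 ± 0.889 in hippocampus, 12.1 ± 1.55 in cortex and 3.36 ± 0.335 in brainstem (SD, n = 4). Hippocampus and cortex did not differ beyond their spread (log2 difference 0.02, SE 0.157, adjusted p = 0.942). The striatal library of WT-220, the highest in striatal markers, held 41.3 FPKM of Lingo3, against 21.1 to 23.7 in the other WT striatal libraries. Cerebellum was below striatum by 0.49 on the log2 scale (SE 0.155, adjusted p = 0.00833), but without the striatal library of WT-220 the difference was −0.22 (adjusted p = 0.0333, with 68.9% of genes called), and without that mouse altogether it was −0.18 (adjusted p = 0.139). In cerebellum Lingo3 made up 69.2% ± 0.478 of the family's summed FPKM and Lingo1 22.6% ± 0.589, while in cortex Lingo1 made up 87.2% ± 0.768 and Lingo3 10.0% ± 0.830.

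Lingo4 was a gene of the hindbrain. It stood at 6.46 ± 0.755 FPKM in brainstem and 1.84 ± 0.222 in cerebellum, against 0.269 ± 0.0968 in cortex, 0.175 ± 0.0359 in striatum and 0.135 ± 0.0415 in hippocampus. Brainstem was 47.7-fold above hippocampus, the widest span of the 4 genes, and Lingo4 made up 26.4% ± 1.85 of the family there. The forebrain levels rest on 20 to 55 read pairs per WT library, and neither striatum and cortex (adjusted p = 0.196) nor hippocampus and striatum (adjusted p = 0.305) differed beyond their spread. Hippocampus and cortex did differ (log2 difference −1.01, SE 0.275, adjusted p = 0.00412).

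Lingo2 was low in every region. It was highest in cortex at 3.0 ± 0.119 FPKM and lowest in cerebellum at 0.441 ± 0.0265, a 6.80-fold span. Brainstem, hippocampus and striatum stood between, at 2.11 ± 0.230, 2.05 ± 0.285 and 2.16 ± 0.475, and no 2 of these 3 differed beyond their spread (adjusted p 0.702 to 0.899). Cortex was above striatum by 0.49 on the log2 scale (SE 0.131, adjusted p = 0.0219), and without the striatal library of WT-220 that difference no longer passed the test (adjusted p = 0.0555), nor did it without mouse WT-70 (adjusted p = 0.0584) or mouse WT-221 (adjusted p = 0.0669), while without that striatal library hippocampus stood below striatum (−0.23, adjusted p = 0.0467, with 54.5% of genes called). A called difference between WT regions was common among all genes. Cerebellum against brainstem, hippocampus, striatum and cortex called 65.4%, 63.6%, 71.8% and 70.3% of the genes tested. Brainstem against hippocampus, striatum and cortex called 60.7%, 66.1% and 65.1%, hippocampus against striatum and cortex 58.2% and 55.4%, and striatum against cortex 10.7%.

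**Figure D1:**
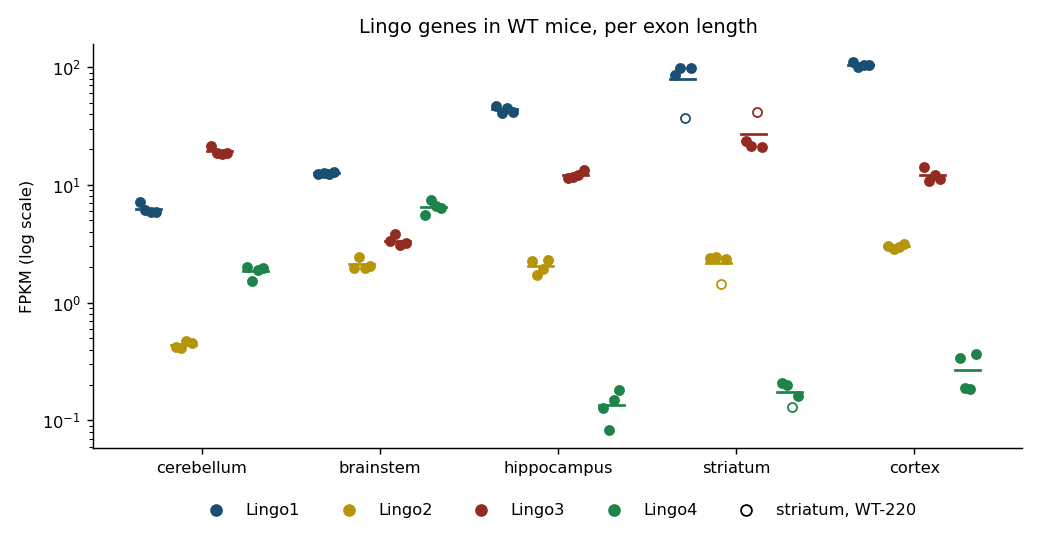
Levels of the 4 Lingo genes in WT mice, as FPKM on a log axis, by brain region. Points are single mice, lines are means of 4, and the open points are the striatal library of WT-220. By mean, Lingo1 leads in every region except cerebellum, where Lingo3 stands at 19.2 FPKM against 6.28, and Lingo4 reaches its highest level, 6.46 FPKM, in brainstem.

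In cortex all 4 genes had lower means in both mutants than in WT. Values within a region are CPM after trimmed-mean normalization, and the fold changes are edgeR estimates. Lingo1 was at 516, 478, 490.3 and 485 CPM in the WT mice. It was at 306, 311, 277 and 320.1 CPM in 154Q mice and at 309.6, 299, 307 and 308 CPM in 154Q-AXH mice. Every mutant library was below every WT library, and the 2 mutants overlapped. The log2 fold change was −0.70 (SE 0.0474) in 154Q and −0.69 (SE 0.0474) in 154Q-AXH.

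Cortical Lingo3 was at 50.7, 38.7, 42.8 and 39.5 CPM in WT. It was at 28.1, 24.8, 23.9 and 27.7 CPM in 154Q and at 25.5, 26.4, 29.4 and 31.6 CPM in 154Q-AXH. Again no mutant library reached the WT range, and the log2 fold changes were −0.72 (SE 0.0910) and −0.60 (SE 0.0909). Cortical Lingo2 differed less, with 23.7 to 25.9 CPM in WT, 19.2 to 23.0 in 154Q and 19.2 to 21.3 in 154Q-AXH, and log2 fold changes of −0.22 (SE 0.0641) and −0.26 (SE 0.0646). Lingo4 was at 0.66 to 1.33, 0.46 to 0.82 and 0.40 to 0.70 CPM, from 14 to 55 read pairs per library, and its groups overlapped (−0.57, SE 0.278, and −0.80, SE 0.295). Both mutants share the same 4 WT libraries. Lingo1, Lingo2 and Lingo3 lay wholly below WT in both mutants, where 8.01% of all genes tested did so in 154Q and 8.15% in 154Q-AXH.

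Markers of several cell types and of cortex itself differed in the same tissue, where 11.1% of all genes were called in 154Q and 7.15% in 154Q-AXH. The summed CPM of 4 neuronal markers was 4983 to 5480 in WT cortex, 3876 to 4662 in 154Q and 4170 to 4998 in 154Q-AXH, and 3 and 1 of the 4 were called lower. The 2 excitatory markers summed to 1558 to 1776, 1316 to 1453 and 1364 to 1483 CPM, with 1 and 0 called lower, and the 4 astrocyte markers to 993 to 1098, 794 to 916 and 785 to 978 CPM, with 3 and 0 called lower. The 6 cortical markers summed to 576 to 661, 410 to 494 and 410 to 485 CPM, with 1 higher and 1 lower in 154Q and 3 lower in 154Q-AXH. The 3 inhibitory markers summed to 581 to 643, 458 to 501 and 498 to 518, with 1 called lower in each mutant. Myelin and oligodendrocyte markers, 7 genes, ranged over 5926 to 7358, 4703 to 6326 and 5820 to 7492 CPM, and none was called. No marker of microglia, endothelium or oligodendrocyte precursors was called in either mutant. The part of all these markers in the Lingo differences was not tested. Without WT-221 the Lingo1 values were −0.70 and those of Lingo3 −0.75 and −0.64, and without the pair of cortical libraries in doubt Lingo1 was at −0.72 and −0.69 and Lingo3 at −0.75 and −0.56.

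**Figure D2:**
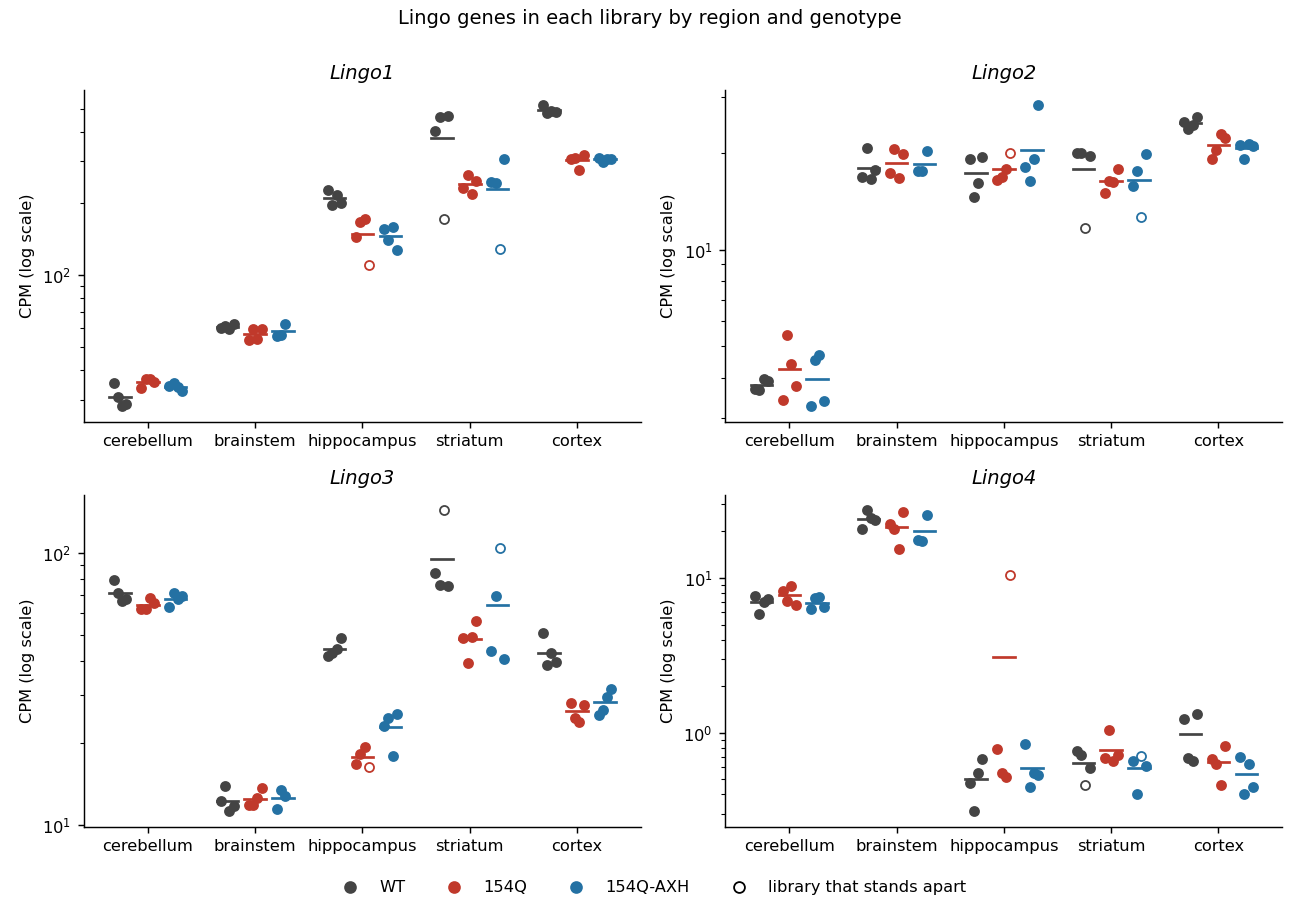
CPM of each Lingo gene in all 59 libraries, on log axes, by region and genotype. Points are single libraries, short lines are group means, and open points are the hippocampal library of 154Q-76 and the striatal libraries of WT-220 and 154Q-AXH-217. Cortical Lingo1 and hippocampal Lingo3 show no overlap between WT and mutants, and hippocampal Lingo4 of 154Q-76, at 10.5 CPM, lies far above the rest.

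The log2 difference of Lingo3 from WT was larger in hippocampus than in the other 4 regions, a comparison that was not tested. It was at 41.9, 42.9, 44.2 and 48.6 CPM in WT. It was at 16.8, 18.3, 19.4 and 16.3 CPM in 154Q and at 23.0, 24.7, 17.99 and 25.6 CPM in 154Q-AXH. The lowest WT library was above the highest mutant one, and 3 of the 4 154Q-AXH libraries, all but that of 154Q-AXH-217, were above every 154Q library. The log2 fold change was −1.33 (SE 0.102) in 154Q and −0.96 (SE 0.101) in 154Q-AXH.

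Hippocampal Lingo1 was at 227, 197, 216 and 200.2 CPM in WT. It was at 144, 167, 172 and 111 CPM in 154Q and at 156, 141, 159 and 127 CPM in 154Q-AXH. No mutant library reached the WT range, the lowest being that of 154Q-76. The log2 fold changes were −0.50 (SE 0.122) and −0.53 (SE 0.122). Lingo1 and Lingo3 were the members wholly below WT, as were 7.26% of all genes in 154Q and 5.79% in 154Q-AXH.

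Hippocampal Lingo2 overlapped between genotypes, at 14.6 to 19.5 CPM in WT, 16.5 to 19.98 in 154Q and 16.3 to 28.2 in 154Q-AXH. Lingo4 was at 0.31 to 0.84 CPM in 11 of the 12 libraries and at 10.5 CPM in that of 154Q-76, whose brainstem markers are given above. Brainstem libraries held 15.4 to 27.5 CPM of Lingo4. The Lingo4 log2 fold change in 154Q was 2.72 (SE 0.983) with that library and 0.34 (SE 0.301) without it. Without it Lingo3 stayed at −1.30 (SE 0.107) and Lingo1 moved to −0.39 (SE 0.0878), with 161 ± 14.7 CPM in the other 3 154Q mice. The 2 excitatory markers summed to 1151 to 1317 CPM in WT hippocampus, 745 to 1077 in 154Q and 1045 to 1113 in 154Q-AXH. Neither was called, and their median log2 fold changes, with 154Q-76 included, were 0.58 and −0.02. The 3 inhibitory ones summed to 579 to 602, 449 to 557 and 425 to 504, with 1 called lower in each mutant. The 4 hippocampal markers summed to 262 to 387, 191 to 278 and 261 to 429, with 1 lower in 154Q and none called in 154Q-AXH. The 191 was 154Q-76, and the other 154Q libraries held 230 to 278. These marker counts all include 154Q-76. Of all genes 5.91% and 1.3% were called. The part of these markers was not tested.

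In striatum, which the choice of genes did not use, the outcome depended on the 2 libraries that stood apart. The striatal libraries are labelled as from the same mice as the cortical ones, whose values the choice used. Lingo1 was at 404, 459, 172 and 463 CPM in WT, the 172 being WT-220. It was at 233, 263, 219.9 and 249 CPM in 154Q and at 245, 243, 129 and 306 CPM in 154Q-AXH, the 129 being 154Q-AXH-217. With all 12 libraries Lingo1 differed from WT by −0.64 (SE 0.287, adjusted p = 0.202) in 154Q and −0.70 (SE 0.287, adjusted p = 0.320) in 154Q-AXH. Lingo3 was at 84.6, 75.9, 143 and 75.5 CPM in WT, with WT-220 highest. It was at 48.7, 39.4, 49.0 and 55.9 CPM in 154Q and at 43.6, 69.2, 104 and 40.7 CPM in 154Q-AXH, with 154Q-AXH-217 highest. All 154Q libraries were below all WT ones for Lingo3, as for 8.94% of genes tested, but the difference did not pass the test (−0.98, SE 0.287, adjusted p = 0.0665), nor did that of 154Q-AXH (−0.56, SE 0.285, adjusted p = 0.461).

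None of the 4 genes was called in striatum with edgeR on all libraries, where 5.68% of genes were called in 154Q and 1.35% in 154Q-AXH. Unadjusted p was 0.0454 for Lingo1 and 0.00485 for Lingo3 in 154Q and 0.0309 for Lingo1 in 154Q-AXH, and DESeq2 called Lingo3 in 154Q (adjusted p = 0.0103, with 9.11% of genes called). Without the pair of libraries, removed after their values were seen, Lingo1 was lower in both mutants, with log2 fold changes of −0.86 (SE 0.0886, adjusted p = 7.99e-05) and −0.73 (SE 0.0959, adjusted p = 0.00115). Lingo3 was then lower in 154Q (−0.69, SE 0.156, adjusted p = 0.0135) and at −0.61 (SE 0.170, adjusted p = 0.0596) in 154Q-AXH. Lingo1 stood at 442 ± 33.2 CPM in WT (n = 3), 241 ± 18.6 in 154Q (n = 4) and 265 ± 36.0 in 154Q-AXH (n = 3). Its groups then lay wholly below WT, as did those of 13.1% of genes in 154Q and 12.7% in 154Q-AXH. By the test 11.8% of genes were then called in 154Q and 5.06% in 154Q-AXH. The 10 libraries left held 321 to 602 CPM of cortical markers, against 410 to 661 in the cortical libraries. These tests are therefore not independent of the cortical values used in the choice of genes.

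Among striatal libraries Lingo1 was low where cortical markers were low. The 6 cortical markers summed to 507 to 602 CPM in the other 3 WT libraries, 321 to 416 in 154Q and 356 to 456 in the other 3 154Q-AXH libraries. Lingo3 was instead high where striatal markers were high, and those summed to 1390 to 1858, 555 to 978 and 496 to 1343 CPM in the same libraries. Neither set of ranges overlapped between WT and mutants. The part of the share of cortex or striatum in the dissected tissue was not tested.

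**Figure D3:**
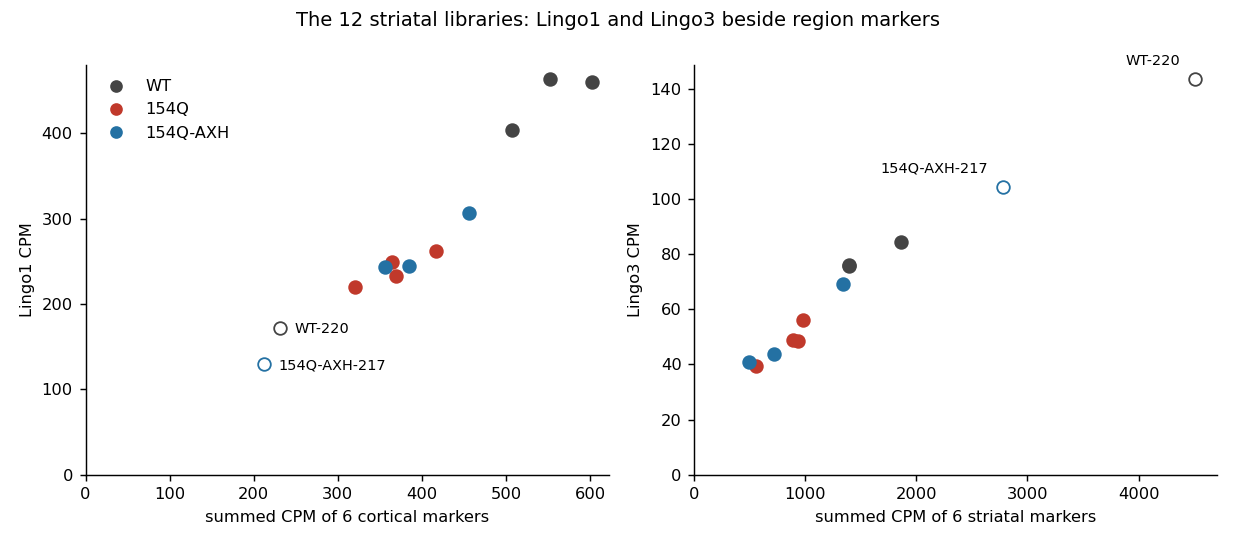
The 12 striatal libraries, with Lingo1 CPM against the summed CPM of 6 cortical markers (left) and Lingo3 CPM against that of 6 striatal markers (right). Points are libraries coloured by genotype, and the open ones are WT-220 and 154Q-AXH-217, which lie lowest on the cortical axis at 231 and 212 CPM and highest on the striatal axis at 4510 and 2775 CPM.

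In cerebellum Lingo1 had higher means in both mutants than in WT. It was at 35.4, 30.8, 28.2 and 28.8 CPM in WT. It was at 33.5, 36.7, 36.6 and 35.6 CPM in 154Q and at 34.3, 35.4, 34.0 and 32.7 CPM in 154Q-AXH. All mutant libraries were above 3 of the 4 WT libraries, and WT-70 overlapped them. The log2 fold changes, 0.21 (SE 0.0642, adjusted p = 0.0764) and 0.15 (SE 0.0642, adjusted p = 0.283), did not pass the test with all mice. Of the 12 fits that each left out 1 library, 1 passed in each mutant. It was the fit without WT-70, the WT library with the highest Lingo1, so these calls rest on leaving that value out. The log2 fold changes were then 0.28 (adjusted p = 0.00357) and 0.22 (adjusted p = 0.0319), with 6.31% and 2.62% of genes called. DESeq2 on all mice called that of 154Q (adjusted p = 0.0266, with 9.26% of genes called). With a term for the low or high series of mouse numbers in edgeR, Lingo1 was at 0.11 (adjusted p = 0.384, with 4.59% of genes called) in 154Q and 0.26 (adjusted p = 0.0212, with 7.07% called) in 154Q-AXH. Among the WT cerebellar libraries those of WT-220 and WT-221 were the closest pair, with a chi-square per degree of freedom of 6.83 over genes against 37.6 to 51.5 for their pairs with WT-70 and WT-77.

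Cerebellar Lingo3 was at 66.6 to 79.3 CPM in WT, 62.1 to 68.3 in 154Q and 63.0 to 70.9 in 154Q-AXH, with log2 fold changes of −0.14 (SE 0.0572, adjusted p = 0.196) and −0.07 (SE 0.0571, adjusted p = 0.613). With the term for the number series Lingo3 passed the test in 154Q (−0.22, adjusted p = 0.0443). Lingo2 ranged over 3.65 to 3.95, 3.40 to 5.43 and 3.25 to 4.71 CPM, and Lingo4 over 5.88 to 7.70, 6.69 to 8.89 and 6.29 to 7.52. With edgeR on all mice none of the 4 genes was called in cerebellum, where 5.22% of genes were called in 154Q and 2.21% in 154Q-AXH.

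In brainstem the groups overlapped for every member. Lingo1 was at 59.9, 61.0, 59.2 and 62.4 CPM in WT. It was at 53.6, 59.3, 54.2 and 59.7 CPM in 154Q and at 55.8, 56.2 and 62.7 CPM in the 3 154Q-AXH mice. Its log2 fold changes were −0.10 (SE 0.0493, adjusted p = 0.511) and −0.06 (SE 0.0533, adjusted p = 0.899). Lingo4, at its highest level of the 5 regions, was at 20.8 to 27.5 CPM in WT, 15.4 to 26.7 in 154Q and 17.5 to 25.4 in 154Q-AXH (−0.19, SE 0.156, adjusted p = 0.735, and −0.26, SE 0.170, adjusted p = 0.826). Lingo2 was at 16.6 to 20.7, 16.7 to 20.7 and 17.6 to 20.3 CPM and Lingo3 at 11.2 to 13.9, 11.8 to 13.7 and 11.4 to 13.4. No member was called, with a lowest unadjusted p of 0.0714, against 0.538% of all genes in 154Q and 0.0138% in 154Q-AXH.

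**Figure D4:**
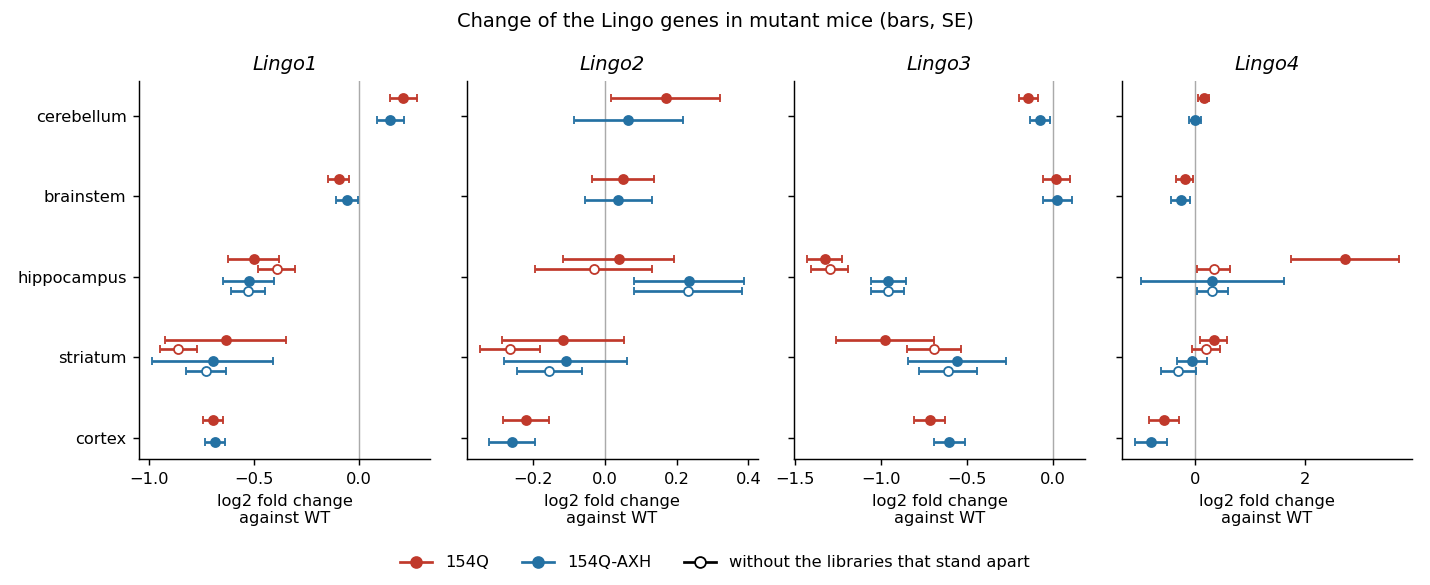
Log2 fold change of each Lingo gene against WT in 5 regions, with bars of 1 SE, for 154Q and 154Q-AXH. Each panel has its own horizontal scale. Open points leave out the pair of striatal libraries or the hippocampal library of 154Q-76. Lingo1 and Lingo3 lie below 0 in hippocampus, striatum and cortex, and Lingo1 lies above 0 in cerebellum.

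The direct comparison of the 2 mutants asks whether the changes that abolish the binding of the expanded ATXN1 to CIC alter the Lingo genes. No member was called in cerebellum, brainstem or striatum with edgeR or DESeq2. The difference of Lingo1 was −0.06 (SE 0.0638, adjusted p = 0.902) in cerebellum and −0.06 in striatum, where it was 0.13 (adjusted p = 0.629) without the striatal pair. Striatal Lingo3 was 0.42 higher in 154Q-AXH than in 154Q (SE 0.286, adjusted p = 0.945), and 0.08 without the pair. In the regions used in the choice of genes the differences are descriptions. Lingo1 was 0.01 higher (SE 0.0473) in cortex and differed by −0.02 in hippocampus, or −0.13 without 154Q-76. Hippocampal Lingo3 was 0.37 higher in 154Q-AXH on the log2 scale (SE 0.102), and 0.34 without 154Q-76. Over all genes this comparison called 0.0335% in cerebellum and 0 genes in the other 4 regions, where 601 to 2356 genes had an unadjusted p under 0.05 and DESeq2 called 0 to 46. All 154Q mice carry mouse numbers of the lower series in the labels and all 154Q-AXH mice numbers of the higher one, while WT mice are in both. With a term for the series the Lingo1 difference was 0.16 (adjusted p = 0.354) in cerebellum and 0.38 (adjusted p = 1.0) in striatum. That of Lingo3 was then −0.030 in striatum and 0.24 in hippocampus, where it was 0.37 without the term.

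Whether the mutant effect differed between regions was tested over cerebellum, brainstem and striatum in 1 model. With all libraries the effect of 154Q on Lingo3 differed among the 3 regions (adjusted p = 0.0491, as for 4.05% of genes), with striatum below brainstem by 1.00 on the log2 scale (SE 0.277, adjusted p = 0.0440, as for 2.58% of genes). That of Lingo1 did not pass (adjusted p = 0.139), nor did any member in 154Q-AXH, where 0.922% of genes did. The Lingo3 call was lost on leaving out any of 8 mice, with adjusted p up to 0.289 without WT-220.

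Without the pair of striatal libraries, the Lingo1 effect differed among the regions in 154Q (adjusted p = 1.75e-07, 5.91% of genes called) and in 154Q-AXH (adjusted p = 2.30e-05, 2% called). The pair was removed after its values were seen, and WT-220 had the lowest WT value of striatal Lingo1. In the striatal libraries left, the cortical marker sums of WT and mutants did not overlap, as given above. Tests on those libraries are not independent of the cortical values used in the choice of genes. The striatal log2 fold change lay below the cerebellar one, with differences of −1.07 (SE 0.107) in 154Q and −0.89 (SE 0.111) in 154Q-AXH. It also lay below that in brainstem, by differences of −0.77 (SE 0.106) and −0.68 (SE 0.114). Lingo3 then differed among regions in 154Q (adjusted p = 0.0110) and not in 154Q-AXH (adjusted p = 0.0685).

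Across all 59 libraries, the genes that varied most like Lingo1 included its receptor partner. The ranking depended on the 3 libraries that stood apart, and r differed between regions. Each library's log2 CPM was taken less the WT mean of its region, and 17539 other genes were ranked by Pearson's r with Lingo1. The first 5 were Jdp2 (r = 0.927), Scube1 (0.917), Rtn4r (0.911), Efhd2 (0.908) and Fbxw7 (0.905) over 59 libraries. Jdp2 is a basic leucine zipper repressor, Rtn4r the Nogo receptor that binds LINGO1, and Fbxw7 a substrate adaptor of a ubiquitin ligase. Without those 3 libraries, Efhd2 ranked 1st (r = 0.956) and Rtn4r 11th (r = 0.920). Jdp2 then ranked 13th, Scube1 15th and Fbxw7 54th. Within cerebellum alone r with Lingo1 was 0.749 for Rtn4r, 0.735 for Efhd2, 0.382 for Jdp2, 0.0748 for Scube1 and −0.606 for Fbxw7. Within cortex the same genes had r of 0.876 to 0.969. For Lingo3 the first 5 were Ppp3ca, a catalytic subunit of calcineurin (r = 0.911), Lzts3 (0.901), the plasma membrane calcium pump Atp2b1 (0.889), Bag5 (0.883) and the neuronal calcium sensor Hpca (0.879). Without the same 3 libraries Ppp3ca ranked 2nd (r = 0.908), after Penk (r = 0.920), the enkephalin precursor. Bag5 then ranked 6th, Atp2b1 9th, Lzts3 12th and Hpca 21st. Within cerebellum r with Lingo3 was 0.305 for Bag5, 0.0439 for Ppp3ca, 0.0232 for Lzts3, −0.187 for Hpca and −0.451 for Atp2b1. Lingo1 and Lingo3 correlated with each other at r = 0.472 over 59 libraries and 0.713 over 56. Their r was −0.0895 within cerebellum and 0.945 within cortex. These libraries share mice, regions and genotypes and include those that the choice of genes used, and the values are a description.

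**Figure D5:**
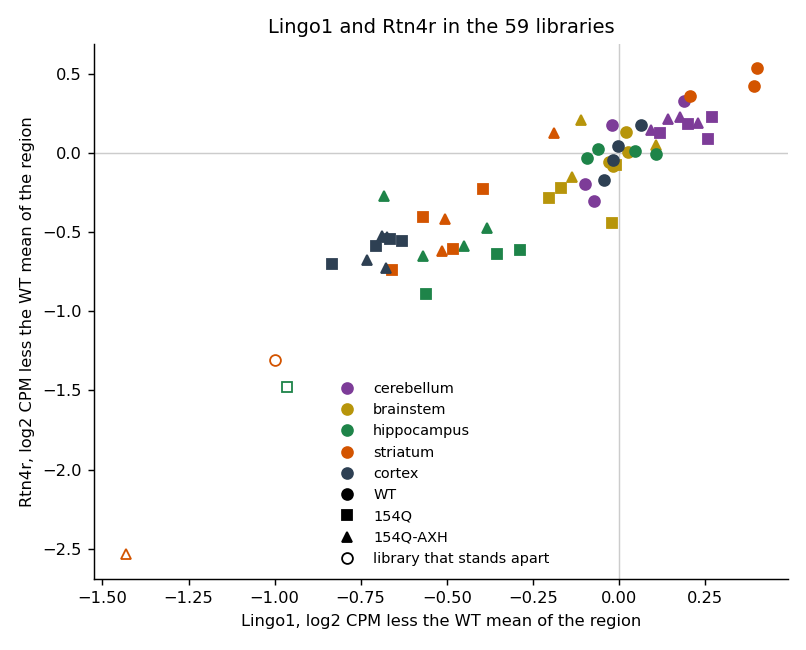
Lingo1 against Rtn4r in 59 libraries, each as log2 CPM less the WT mean of its region. Colours are regions, symbols are genotypes, and open symbols are the 3 libraries that stood apart. The points run from low values of both genes in forebrain mutants to values near 0 in WT (r = 0.911 over 59 libraries), and the open points are the 3 lowest.

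Over the 15 means of region and genotype, the 3 genes closest to Lingo1 were Pdgfb (r = 0.994), Tbc1d22a (0.992) and Fam81a (0.992), and those closest to Lingo2 were Rasgrf2 (0.996), Sulf2 (0.992) and Fam217b (0.991). Lingo3 had no match as close, with Tesc (0.962), Ccdc12 (0.959) and the GABA-A receptor subunit Gabrd (0.953) first. Lingo4 was closest to Phkb (0.995), the receptor tyrosine kinase Ret (0.994) and the cytokine receptor subunit Il6st (0.991). These r values mostly follow the differences between regions.

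A list of 25 genes of the Nogo receptor pathway and of LINGO1 partners was examined beside the family. It was chosen with earlier results of these data known, so its counts and adjusted p are no independent test of the pathway. In cortex 6 of 24 tested were lower in 154Q and none higher, with a median log2 fold change of −0.12 against 0.01 for all genes, of which 11.1% were called. In 154Q-AXH 4 were lower and 2 higher, median −0.10 against 0.00, with 7.15% of all genes called. Without WT-221 the counts were 4 lower and 0 higher in 154Q and 2 lower and 1 higher in 154Q-AXH, where 7.54% and 4.62% of all genes were called. Without the cortical pair in doubt 6 and 2 were lower and none higher, with 9.8% and 4.25% of all genes called. The cortical values below are from all libraries, so some of these calls were lost in those fits.

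Of the ligands, Rtn4, which encodes Nogo, was lower in 154Q cortex (−0.25, SE 0.0678, adjusted p = 0.0250), as was Omg (−0.25, SE 0.0746, adjusted p = 0.0402). Rgma, the ligand of neogenin, was higher in 154Q-AXH cortex (0.26, SE 0.0676, adjusted p = 0.0314), a call lost without the cortical pair in doubt. Of the receptors, Rtn4r was lower in both mutants. It stood at 104 ± 10.7 CPM in WT, 68.6 ± 3.37 in 154Q and 67.8 ± 4.62 in 154Q-AXH (SD, n = 4 each). Its log2 fold changes were −0.59 (SE 0.0702, adjusted p = 9.20e-05) and −0.61 (SE 0.0703, adjusted p = 9.39e-05). Its paralog Rtn4rl1 was lower too (−0.39, adjusted p = 0.0148, and −0.34, adjusted p = 0.0394). The ROCK kinase Rock2 (−0.25, adjusted p = 0.00441, and −0.21, adjusted p = 0.0218) and the BK channel Kcnma1 (−0.32, adjusted p = 6.93e-04, and −0.32, adjusted p = 0.00101) were lower in both mutants.

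In hippocampus Rtn4r was lower in 154Q (−0.85, SE 0.146, adjusted p = 0.00623), with 62.3 ± 0.844 CPM in WT and 34.6 ± 8.40 in 154Q, and the receptor Neo1 was higher (0.24, SE 0.0560, adjusted p = 0.0246), of 24 tested. None was called in 154Q-AXH, where 1.3% of all genes were, and 5.91% in 154Q. Without 154Q-76 the counts were 2 lower and 1 higher in 154Q and 1 lower in 154Q-AXH, with 6.06% and 3.61% of all genes called. Rtn4r was then at −0.70 (SE 0.0839, adjusted p = 6.44e-04), with 38.3 ± 3.76 CPM in the other 3 154Q mice, and at −0.50 (SE 0.0766, adjusted p = 0.00446) in 154Q-AXH. In cerebellum, where 5.22% and 2.21% of all genes were called, Kcnma1 was lower in both mutants (−0.37, SE 0.0593, adjusted p = 0.00162, and −0.26, SE 0.0592, adjusted p = 0.0364), Ngfr was higher in 154Q (0.55, SE 0.140, adjusted p = 0.0352) and Rtn4rl1 was lower in 154Q-AXH (−0.28, SE 0.0568, adjusted p = 0.0214). In striatum Rtn4 (−0.29, adjusted p = 0.0244) and the LINGO1-binding neurotrophin receptor Ntrk3 (−0.33, adjusted p = 0.0348) were lower in 154Q, of 25 tested, and none in 154Q-AXH, against 5.68% and 1.35% of all genes. Without the striatal pair 9 of 25 were lower in 154Q and 6 of 25 in 154Q-AXH, Rtn4r among them (−0.92, adjusted p = 0.00205, and −0.71, adjusted p = 0.030), against 11.8% and 5.06% of all genes. In brainstem none was called, and DESeq2 called 2 in 154Q, with 2.22% of all genes called. Between the 2 mutants no gene of the list was called in any region.

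A second list held 19 other neuronal genes with leucine-rich repeats and immunoglobulin domains, such as the Amigo, Lrfn, Lrrc4 and Lrig families. All 19 were tested in every region, and this list too was chosen with earlier results known. In cerebellum 4 were higher and 4 lower in 154Q and 3 were higher in 154Q-AXH, where 5.22% and 2.21% of all genes were called. In cortex 1 was higher and 2 lower in 154Q and 1 higher and 1 lower in 154Q-AXH, against 11.1% and 7.15%. The cortical counts were the same without the pair in doubt, against 9.8% and 4.25% of all genes. Without WT-221 those of 154Q were 1 higher and 1 lower, against 7.54% of all genes. In hippocampus 1 was lower in each mutant, against 5.91% and 1.3% of all genes. Without 154Q-76 2 were lower in 154Q and 1 was higher and 1 lower in 154Q-AXH, against 6.06% and 3.61%. In striatum 1 was higher in 154Q and none passed in 154Q-AXH, against 5.68% and 1.35%. Without the striatal pair 2 were higher and 1 lower in 154Q and 1 was higher in 154Q-AXH, against 11.8% and 5.06%. In brainstem none was called, against 0.538% and 0.0138%. Medians lay between −0.05 and 0.06 on the log2 scale in all 10 comparisons with every library, and no gene of the list was called in 3 or more regions.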

How the data were processed

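Total polyA RNA of dissected tissue was extracted with the miRNeasy kit, and libraries were made and sequenced by Genewiz as paired reads. Trimming was by Trimmomatic 0.36, STAR 2.7.2d aligned the reads to GRCm38.p6 with GENCODE annotation, and the authors deposited STAR's count of read pairs per gene for each library. The unstranded count column was used, since 48.9% to 50.1% of strand-assigned pairs fell on the first strand. Of all pairs, 75.3% to 81.2% were counted in a gene, 4.36% to 5.33% were ambiguous and 3.73% to 9.90% lay in no gene. STAR's 4 summary lines and 1 non-mouse line were left out. Symbols came from GENCODE for 54165 of 54232 genes. All 59 libraries were mapped to genotype, region and mouse from the labels, and 87 pairs of libraries within groups differed beyond sampling noise.

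Within each region genes kept by filterByExpr were normalized by the trimmed mean of M values and tested by the quasi-likelihood test of edgeR 4.0.16 (R 4.3.3) over the 3 genotypes, with Benjamini-Hochberg adjustment over all genes tested and a threshold of 0.05. The study's own method, DESeq2 (here 1.42.0), was an alternative, as were DESeq2 size factors, no filter, a fit of 2 genotypes alone, a term for low or high mouse numbers, and leaving out each library. FPKM used the merged exon length. WT regions and the interaction were fitted across regions. Same-numbered libraries are labelled as the same mouse, which the cortical library of WT-221 goes against by its Xist and Ddx3y, and their deviations correlated at −0.245 to 0.375 over 40 pairs. The tests were checked on simulated counts. The pathway genes named are those called in at least 1 mutant comparison (a result that is not reported here aside), those of the second list those called in 3 or more regions, and the like genes are the top 3 or 5 by r. The members and lists were chosen with earlier results of these data known. Promoter bases came from RefSeq tables, in which all 4 genes matched.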

Additional observations from a re-analysis of the deposited data

Results flagged for a closer look

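A library far from the others of its group was looked for in 56 groups of 4 libraries with Dixon's ratio, which flags about 1 in 20 groups by chance, and 4 were found. Hippocampal Lingo4 was at 10.5 CPM in 154Q-76, striatal Lingo2 at 11.7 CPM and striatal Lingo3 at 143 CPM in WT-220, and cortical Lingo2 at 19.2 CPM in 154Q-AXH-209. The first 3 belong to the libraries whose region markers stood apart.

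The 154Q effect on Lingo3 differed among cerebellum, brainstem and striatum (edgeR adjusted p = 0.0491), and between striatum and brainstem (adjusted p = 0.044).

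Directions also differed between regions in ways that were not tested, because the genes were chosen for their levels in cortex and hippocampus. In 154Q every library was above the WT mean for Lingo1 in cerebellum (0.21 on the log2 scale) and below it in hippocampus (−0.50) and cortex (−0.70). In 154Q-AXH the same held with 0.15 in cerebellum, −0.53 in hippocampus and −0.69 in cortex. Lingo4 in 154Q lay above the WT mean in hippocampus (2.72, and 0.34 without 154Q-76) and striatum (0.33) and below it in cortex (−0.57), at 14 to 55 read pairs per cortical library.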

How the results depend on the processing

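Of 376 values of Lingo1 and Lingo3 recomputed under settings other than leaving out a mouse, 347 kept their call and direction. Another 12 changed sign, none of them a value that passed the test. With DESeq2, Lingo1 in 154Q cerebellum (0.21) and Lingo3 in 154Q striatum (−0.97) passed the test. With 2 genotypes fitted alone, Lingo3 in 154Q striatum (−0.98) passed. When a term for low or high mouse numbers was added, Lingo3 in 154Q cerebellum (−0.22, adjusted p = 0.0443) and Lingo1 in 154Q-AXH cerebellum (0.26, adjusted p = 0.0212) passed. With no filter on low counts, the Lingo3 interaction in 154Q was lost (adjusted p = 0.0566 over the regions, and −0.99 for striatum less brainstem). Without the striatal pair, striatal Lingo1 was at −0.86 and −0.73 and Lingo3 at −0.69. The interaction of Lingo1 then had adjusted p = 1.75e-07 and 2.30e-05, with −1.07 and −0.89 (striatum less cerebellum) and −0.77 and −0.68 (striatum less brainstem), and Lingo3 had −0.55 for striatum less cerebellum in 154Q. The cause of these changes was not tested.

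Over the 4 genes, leaving aside the untested differences of mutants from WT in cortex and hippocampus, 21 values changed sign under such a setting. Of these, 0 passed the test. With the mouse-number term these were, for 154Q-AXH less 154Q, Lingo1 at 0.16 in cerebellum, 0.0034 in hippocampus and 0.38 in striatum, Lingo3 at −0.030 and Lingo4 at 0.13 in striatum, and Lingo2 at 0.12 in brainstem. Against WT they were Lingo3 at 0.0095 and Lingo4 at −0.037 in 154Q-AXH cerebellum, Lingo2 at 0.083 and Lingo4 at 0.21 in 154Q-AXH striatum, and Lingo2 at −0.013 and Lingo3 at −0.068 in 154Q brainstem. Without the striatal pair Lingo1 was at 0.13 for 154Q-AXH less 154Q in striatum and the Lingo4 interaction in 154Q-AXH at −0.060 for striatum less brainstem. For 154Q-AXH less 154Q, Lingo2 was at −0.0060 in striatum with no filter and at 0.00070 in cortex with the labels of the cortical pair exchanged. WT Lingo3 in hippocampus less cortex was at −0.0014 with no filter, −0.0068 with DESeq2 size factors, −0.0072 with DESeq2, and −0.051 without the cortical library of WT-221 (−0.020 with the replicate block also). Among the untested differences left aside, Lingo4 in 154Q-AXH hippocampus was at −0.018 with the mouse-number term and 0.31 without it.

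Leaving out 1 mouse at a time moved the log2 fold change of cerebellar Lingo1 over 0.17 to 0.28 in 154Q and 0.10 to 0.22 in 154Q-AXH, both highest without WT-70. Striatal Lingo1 ranged over −0.88 to −0.52 in 154Q and −0.94 to −0.48 in 154Q-AXH, passing the test without WT-220, and striatal Lingo3 in 154Q over −1.07 to −0.71, passing without 154Q-AXH-217. WT Lingo3 in cerebellum less striatum ranged over −0.61 to −0.18, lost without WT-220. The adjusted p of the 154Q interaction ran from 0.00547 to 0.394 for Lingo1 and 0.00871 to 0.289 for Lingo3, and that of Lingo1 in 154Q-AXH from 0.00604 to 0.713. Striatum less cerebellum ranged over −1.05 to −0.70 (Lingo1) and −0.94 to −0.54 (Lingo3) in 154Q and −1.06 to −0.65 (Lingo1) in 154Q-AXH. Striatum less brainstem ranged over −0.77 to −0.43 (Lingo1) and −1.17 to −0.69 (Lingo3) in 154Q and −0.88 to −0.45 (Lingo1) in 154Q-AXH. Lingo1 interactions passed without WT-220, and Lingo1 and Lingo3 in 154Q for striatum less cerebellum also without 154Q-AXH-217.

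The untested differences of mutants from WT in cortex and hippocampus were again left aside. Among those, Lingo2 in 154Q hippocampus ran from −0.040 to 0.094 on leaving out 1 library. Leaving out 1 mouse at a time changed the sign of 26 other differences that did not pass the test before or after. Against WT these were, in 154Q-AXH cerebellum, Lingo2 (−0.025 to 0.15) and Lingo4 (−0.080 to 0.049), in 154Q brainstem Lingo2 (−0.0022 to 0.13) and Lingo3 (−0.028 to 0.086), in 154Q-AXH brainstem Lingo2 (−0.036 to 0.12) and Lingo3 (−0.023 to 0.095), and in 154Q-AXH striatum Lingo2 (−0.27 to 0.012) and Lingo4 (−0.22 to 0.093). For 154Q-AXH less 154Q they were Lingo2 in cerebellum (−0.19 to 0.043), Lingo1 (−0.018 to 0.069), Lingo2 (−0.087 to 0.040), Lingo3 (−0.044 to 0.069) and Lingo4 (−0.28 to 0.052) in brainstem, Lingo1 in hippocampus (−0.13 to 0.049), Lingo1 (−0.23 to 0.14) and Lingo2 (−0.095 to 0.12) in striatum, and Lingo1 (−0.028 to 0.036) and Lingo2 (−0.084 to 0.0032) in cortex. Between WT regions they were Lingo2 in brainstem less hippocampus (−0.12 to 0.14), brainstem less striatum (−0.14 to 0.074) and hippocampus less striatum (−0.19 to 0.077), and Lingo3 in hippocampus less cortex (−0.097 to 0.12). In the interaction they were, for striatum less cerebellum, Lingo4 in 154Q (−0.045 to 0.35) and Lingo2 (−0.38 to 0.021) and Lingo4 (−0.23 to 0.13) in 154Q-AXH, and for brainstem less cerebellum Lingo2 in 154Q-AXH (−0.20 to 0.092).

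Same-numbered libraries are labelled as the same mouse, though the Xist and Ddx3y of the cortical library of WT-221 go against its label and the block ties it to that mouse. With a replicate block for the mouse all 72 WT and interaction results kept their call (WT Lingo1 in striatum less cortex −0.43; Lingo3 interaction in 154Q, adjusted p = 0.0477), and without that cortical library the 40 WT results kept theirs with and without the block (WT Lingo2 in striatum less cortex, adjusted p = 0.0343 and 0.0483). Within a region the genotypes share no mouse, so no paired analysis was possible there.

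Counts of all genes called moved with the setting. In 154Q they were 1089 in cerebellum (619 to 1718 over the other settings), 117 in brainstem (19 to 395), 1268 in hippocampus (675 to 2153), 1045 in striatum (234 to 2179) and 2066 in cortex (797 to 2505). In 154Q-AXH they were 462 (241 to 1475), 3 (1 to 78), 279 (111 to 962), 249 (73 to 937) and 1330 (568 to 1751). The highest counts came from DESeq2 in cerebellum (154Q), brainstem, hippocampus and cortex, from the added mouse-number term in 154Q-AXH cerebellum and from removing the pair in striatum. Leaving out 1 library gave as few as 38 in 154Q brainstem (without WT-221), 704 in 154Q hippocampus (WT-220), 501 in 154Q striatum (154Q-69) and, in 154Q-AXH, 160 in cerebellum (154Q-AXH-207), 105 in hippocampus (WT-221), 101 in striatum (154Q-AXH-209) and 825 in cortex (154Q-AXH-207), and as many as 786 in 154Q-AXH hippocampus (154Q-76) and 610 in striatum (WT-220). Lingo4 in forebrain, at 14 to 55 read pairs per cortical library, is limited by depth.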
